A study of Mus musculus with 8 samples.

Results

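Whole mouse embryos collected at E9.0 were profiled as pools on one-colour Agilent arrays, and pools 1 and 2 of each genotype were compared with pools 3 and 4. The replicate number in the labels set the side, and slide identifiers in the scanner files placed pools 1 and 2 on 1 glass slide (slide 1) and pools 3 and 4 on another (slide 2). All 8 arrays of the series entered, 4 on each side, with 2 wild-type and 2 Arid3b-null pools on each slide. Pool number therefore cannot be told apart from slide, hybridisation or scan.

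Every pool held 3 to 4 whole embryos, and the null pools came from embryos labelled null for Arid3b, a gene for a chromatin protein that binds AT-rich DNA. Between 200 and 800 ng of total RNA was amplified and labelled with the dye Cy3. Strain, the kind of null allele, the litter of each pool and the number of somites are not given in the labels, so p-values measure only the spread between these pools. Wild-type pools took positions 1 and 2 and null pools positions 3 and 4 on both slides.

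The mouse embryo around this stage turns, closes its neural tube and adds somites from the tailbud, so transcripts of the tailbud, limb buds and first neurons shift within hours. Yolk sac, trophoblast and maternal decidua surround it and can remain attached at dissection. Odorant receptors, part of a group picked out after its values were seen, are each expressed in few olfactory neurons of the later nose. Most are silent in early embryos. Control spots on the same arrays either bind no embryo RNA or bind spiked-in RNA of known amount.

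Levels are given as log2 of the processed Cy3 signal relative to the 75th percentile of the same array, so a gene at 0 sits at that percentile. Differences are slide 2 minus slide 1 with genotype as a block, and a gene was called at a limma adjusted p under 0.05. The share of probes above background ran from 59.9% to 64.1% over the arrays, and no probe was saturated. Arid3b itself lay between 3.29 and 3.47 in the wild-type pools and between 1.83 and 2.48 in the null pools, lower but not absent, and the labels do not say whether its probe lies in the deleted part. Blood, heart, neural and endoderm markers of an embryo of this age were present, with mean levels of 7.35 for the embryonic globin Hbb-bh1, 6.24 for the atrial myosin Myl7, 2.12 for Sox2 and 2.92 for Afp.

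The control spots, which carry no embryo RNA, already separated the slides. Negative control spots averaged an intensity of 66.8 ± 1.09 (SD, n = 4 arrays) on slide 1 and 83.2 ± 2.55 on slide 2, with every slide 2 array above every slide 1 array. Above the local background the same spots read 0.934 to 5.26 on slide 1 and 20.6 to 26.1 on slide 2, while the local background itself was lower on slide 2, at 59.9 against 64.1. Of 10 spike-in RNAs, 8 had a lower mean on slide 2 and 2 a higher one with overlap between slides. Their mean log2 signal was 11.50 ± 0.13 on slide 1 and 11.19 ± 0.05 on slide 2, and 7 of the 10 were lower on every slide 2 array. Among these 7, E1A_r60_a104 had 0% of its spots above background on each slide 2 array and at most 33.3% on slide 1. E1A_r60_3, 1 of the 2 with a higher mean, had 0% above background on every array. The slope of log signal on log spike-in amount in the file headers rose from 0.921 ± 0.011 to 0.983 ± 0.0069.

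The differences in negative controls, local background, spike-in mean and slope each reached p = 0.0556 in an exact two-sided permutation test of slide within genotype. This is the smallest p that its 36 arrangements allow, so no array measure could pass 0.05 (adjusted p = 0.111 over 14 measures). Relative to each array's 75th percentile the spike-in mean overlapped between slides, at 0.585 to 1.23 on slide 1 and 0.414 to 0.618 on slide 2 (exact permutation p = 0.111). Measures over all probes also overlapped. The median probe signal was 100.6 on slide 1 and 119.7 on slide 2 (exact permutation p = 0.167), and the share of probes above background was 62.1% and 62.3% (exact permutation p = 0.722).

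**Figure D1:**
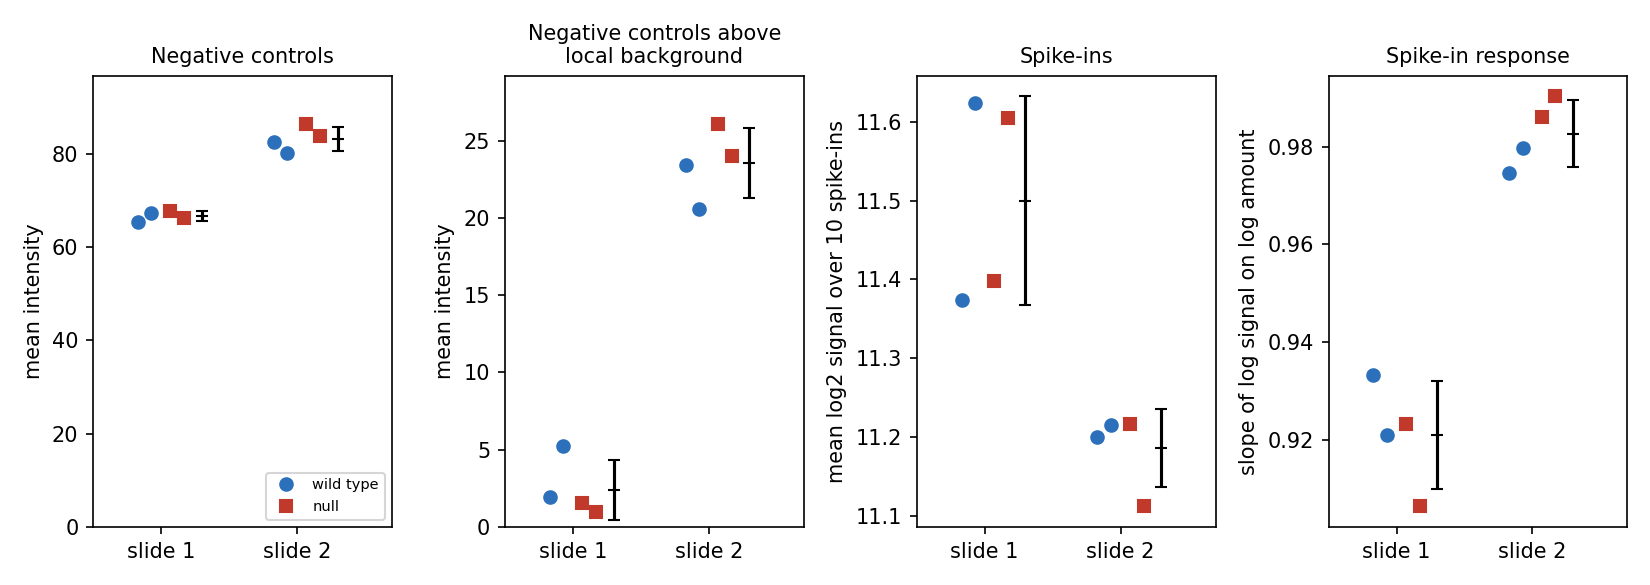
Control spots of the 8 arrays by slide: the intensity of negative controls, the same above local background, the mean log2 signal of the 10 spike-ins, and the slope of log signal on log spike-in amount. Circles are wild-type pools, squares are null pools, and bars give the slide mean and SD (n = 4); in all 4 panels the slides do not overlap, and the last 2 axes do not start at 0.

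Among 17097 genes tested, 2123 (12.4%) differed between the slides. Of these, 1705 (9.97% of genes) were higher on slide 2 and 418 (2.44%) were lower, while the median difference over all genes was 0.02. Calls of at least 2-fold were more uneven, with 533 genes higher (3.12%) and 17 lower (0.0994%). Without a test, the pools of the slides did not overlap within either genotype in 28.5% of genes (18.4% higher, 10.1% lower), and all slide 2 arrays lay above all slide 1 arrays in 13% and below them in 4.53%. The balance of directions followed the scaling. Higher genes made up 80.3% of the calls with the 75th percentile, 48.8% with each array's median, 66.0% with quantile normalization, 69.9% with cyclic loess and 95.5% with no shift. Each array's median moved the difference of all genes to -0.13 and no shift moved it to 0.13. With a normexp background 28 genes were called, all higher, although 5180 had an unadjusted p under 0.05 against 4717 with the processed signal. A random replicate block, which lets pools of 1 number go together, gave 1097 calls (6.42%), and averaging each number gave 771 (4.51%).

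The rises were concentrated in dim genes. With genes split by mean level into 5 equal bins, from the dimmest to the brightest, 23.9%, 12.8%, 6.26%, 4.42% and 2.54% of genes were called higher, and 411, 96, 16, 8 and 2 of them at least 2-fold. Calls of a lower level of any size showed no such gradient, at 2.51%, 2.37%, 3.51%, 2.25% and 1.58%. Those of at least 2-fold were also mostly dim, with 15, 0, 2, 0 and 0 in the same bins. Most risers were measured on both slides, since 1362 of the 1705 were above background on all 4 arrays of slide 1. Of the 533 called at least 2-fold higher, 303 were above background on all 4 slide 1 arrays and 104 on none. Of the 17 called at least 2-fold lower, 11 were above background on no slide 2 array. The 2-fold counts, and the counts by bin of level, therefore include signals below background. Over all calls of a higher level, 109 genes, among them the 104, were above background on none of the slide 1 arrays and on all of slide 2. These 109 passed the filter of at least 4 of 8 arrays only through slide 2, where they were high. For such genes only a bound can be given, the bright slide's mean against the lowest signal above background on the dim slide, and its median over these 109 was at least 2.10-fold.

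Odorant, vomeronasal and taste receptors, a group picked out after their values were seen, held many of the largest rises. Of 166 measured members, 112 were higher on slide 2, 1 was lower and 53 were not called, with a median difference of 0.93. Dim genes as a whole rose less often. In the 2 dimmest bins 110 of 164 receptors (67.1%) were called higher, beside 18.3% of all genes there. Restricting to the 96 receptors above background on every slide 1 array left 66 higher and 1 lower, with a median of 0.82. A separate fit of only genes above background there called 69.8% of receptors higher, beside 8.62% of all its genes. The array carries 1107 probes for 1057 such receptor genes, and 60.3% of these probes were above background on no array. Between 139 and 179 of the probes were above background on a slide 1 array and between 168 and 260 on a slide 2 array. Counts of risers were 96 to 109 of the 166 under the other 4 scalings, beside 5.98% to 8.91% of all genes. With the normexp background 1 receptor was higher, beside 0.164% of all genes, and the median was 1.34. With no filter on dim probes 211 of 1058 receptors (19.9%) were higher, beside 7.24% of all genes, with a median of 0.38. In the deposited table of log2 values 119 of 270 were (44.1%, beside 11.9% of all genes), with a median of 0.35.

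The probes of 4 receptors with the largest called rises and of 3 that were not called and had differences nearest 0 are shown so that probes that moved can be read beside probes of the same family that were not called. They were taken from 90 receptor probes that were above background on all 8 arrays and read without a stop codon in a forward frame. Sequences and mm7 positions are those of the array files, 5′ to 3′, and capitals mark each C.
Olfr508, called, chr7:104545218-104545277, plus strand: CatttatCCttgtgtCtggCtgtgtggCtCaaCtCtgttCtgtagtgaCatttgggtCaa
Olfr513, called, chr7:104670429-104670488, plus strand: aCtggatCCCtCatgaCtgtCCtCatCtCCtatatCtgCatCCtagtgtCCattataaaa
Olfr229, called, chr9:39840099-39840158, plus strand: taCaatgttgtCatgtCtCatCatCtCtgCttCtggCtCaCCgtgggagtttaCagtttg
Olfr1344, called, chr7:6003129-6003188, plus strand: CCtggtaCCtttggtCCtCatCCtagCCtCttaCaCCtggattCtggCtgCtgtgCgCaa
Olfr462, not called, chr11:87959009-87959068, minus strand: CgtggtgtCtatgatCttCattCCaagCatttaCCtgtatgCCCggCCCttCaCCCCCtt
Olfr1026, not called, chr2:85767385-85767444, plus strand: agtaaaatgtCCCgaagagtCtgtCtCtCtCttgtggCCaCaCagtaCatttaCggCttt
Olfr187, not called, chr16:58972175-58972234, minus strand: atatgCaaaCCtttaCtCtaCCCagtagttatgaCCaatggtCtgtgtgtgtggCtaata

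Olfr508 lay at -4.97 and -5.18 in wild-type pools 1 and 2 and at -5.17 and -5.38 in null pools 1 and 2. On slide 2 it lay at -3.19 and -3.09 in wild-type pools 3 and 4 and at -3.25 and -3.24 in the null pools. All slide 2 arrays exceeded all slide 1 arrays, by 1.98 (SE 0.079, adjusted p = 3.4e-05) or 3.95-fold. Olfr513, Olfr229 and Olfr1344 were 3.43-fold, 3.22-fold and 3.21-fold higher. Olfr462 differed by -0.02 (SE 0.091), Olfr1026 by -0.04 (SE 0.38) and Olfr187 by 0.06 (SE 0.12), and their slides overlapped. Cytosine content did not set the risers apart from the other receptors, at 26.4% over the 112 called higher and 26.6% over the 53 not called.

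Over all genes, cytosine content and the share of risers moved together among dim probes. The probes of genes that rose at least 2-fold in the 2 dimmest bins contained 25.7% cytosine, against 20.8% for dim genes not called. Among dim genes above background on all slide 1 arrays, the share called higher was 7.0% where the probe held under 15% cytosine, 7.21% at 15 to 20%, 14.7% at 20 to 25%, 28.3% at 25 to 30% and 42.9% over 30%. In the 2 brightest bins of level the same cytosine classes gave 6.79%, 3.47%, 1.65%, 1.79% and 3.63%. These shares describe the probes, and the part of probe composition in the difference was not tested.

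**Figure D2:**
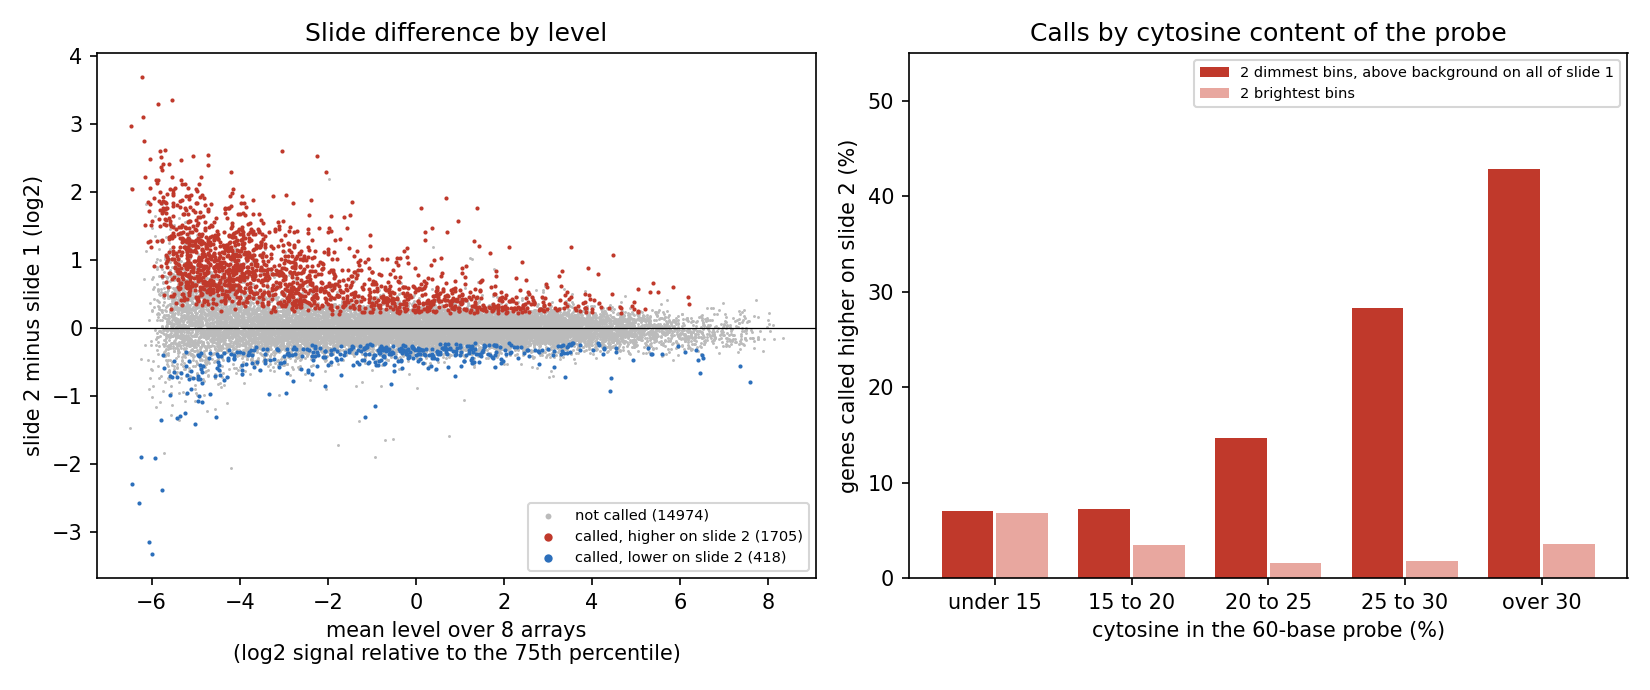
Left, the difference between slides (log2, slide 2 minus slide 1) of each of 17097 genes against its mean level over 8 arrays, with genes called higher (1705) and lower (418) coloured. Right, the percent of genes called higher on slide 2 by cytosine content of the probe, for dim genes above background on all slide 1 arrays and for the 2 brightest bins of level; the dim bars climb from 7.0% to 42.9% and the bright bars stay between 1.65% and 6.79%.

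Among genes above background on all 8 arrays, the largest rise was that of Mup3, a major urinary protein made by adult liver. Its level was -5.38, -5.24, -5.32 and -5.41 on slide 1 and -3.04, -3.05, -3.06 and -3.06 on slide 2, in the order wild type then null. The difference was 2.29 (SE 0.061, adjusted p = 7.48e-06), or 4.89-fold, and the 4 slide 2 pools lay closer together than the slide 1 pools. Krtap6-1, a hair keratin-associated protein, rose by 2.04 (SE 0.082, adjusted p = 3.4e-05), and both of its other probes were also called, at 1.36 and 1.41. Keratins and cornified envelope proteins, another group picked out after their values were seen, had 20 of 40 members higher (beside 9.97% of all genes) and none lower, with a median of 0.37 that stayed above 0 under the other 4 scalings. In the 2 dimmest bins 15 of 25 keratin genes (60%) were higher, beside 18.3% of all genes there. Among 9 above the 75th percentile of their array 1 was higher (11.1%, beside 3.57% of all genes there) and the median was -0.096. A random replicate block left 13 of the 40 higher (32.5%, beside 5.87% of all genes). Both measured major urinary proteins rose, Mup4 by 2.05, although Mup4 was not above background on all 8 arrays.

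The transcription factor genes Scrt1 and Sox14 each rose by 1.95 (adjusted p = 0.00084 and 0.000114). Scrt1, a factor of newly formed neurons, lay between -4.32 and -3.34 on slide 1 and between -2.05 and -1.93 on slide 2. Others among the largest rises were the cytochrome Cyp4a31 at 1.84 (adjusted p = 0.054 with a random replicate block), the sperm protein gene Odf4 at 1.77, the carnitine transporter Slc22a16 at 1.77, the orphan receptor Gprc5d at 1.76 and the secreted glycoprotein Lrg1 at 1.69. Sepsecs, an enzyme of selenocysteine synthesis, rose by 1.85 on its brightest probe, while its other probes differed by 0.07 and 0.21 and were not called. Olfr1355 was chosen after its values were seen because it was above background on no slide 1 array: it lay between -7.39 and -7.09 there and between -4.0 and -3.69 on slide 2, which is at least 3.95-fold higher.

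Among genes above background on all 8 arrays, falls were smaller than rises. Mt4, a metallothionein of stratified epithelium, fell from between -0.66 and 0.07 on slide 1 to between -1.68 and -1.31 on slide 2, a difference of -1.14 (SE 0.17, adjusted p = 0.00491). Lhx9, a LIM homeobox gene, lay at -1.92 and -1.95 in wild-type and -2.83 and -3.19 in null pools on slide 1, and at -2.90 and -3.00 in wild-type and -3.57 and -4.21 in null pools on slide 2. Its difference was -0.95 (adjusted p = 0.00614), and the second probe was called too, at -0.69. The homeobox gene Barx1 fell by 0.82 on the log2 scale (adjusted p = 0.0112), the mitochondrial leucyl-tRNA synthetase Lars2 by 0.80, the linker histone H1f10 by 0.73 and the synaptic vesicle gene Syn1 by 0.72. Lower calls also took in Olfr578 (-0.97), Efhd1 (-0.97), Slc25a47 (-0.85), Entpd2 (-0.74), Gngt2 (-0.70) and Nagk (-0.69). Another 17 genes called lower were above background on no slide 2 array, with a bound of at least 1.53-fold at the median and 2.60-fold at most. Of the falls named, a random replicate block ended the calls of Olfr578 (adjusted p = 0.050), Efhd1 (0.0735), Barx1 (0.0585), Lars2 (0.142), Entpd2 (0.114), H1f10 (0.0961) and Syn1 (0.0666). In the 8 fits without an array, Lars2 kept its call only without wild-type pool 1 or 3, Entpd2 only without wild-type pool 2, null pool 1 or null pool 3, and H1f10 only without wild-type pool 3, wild-type pool 4 or null pool 1. Gngt2 lost its call without wild-type pool 2, wild-type pool 4 or null pool 4 (adjusted p up to 0.0706). With the normexp background Lhx9, Olfr578, Efhd1, Entpd2 and Gngt2 turned to positive, uncalled differences.

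**Figure D3:**
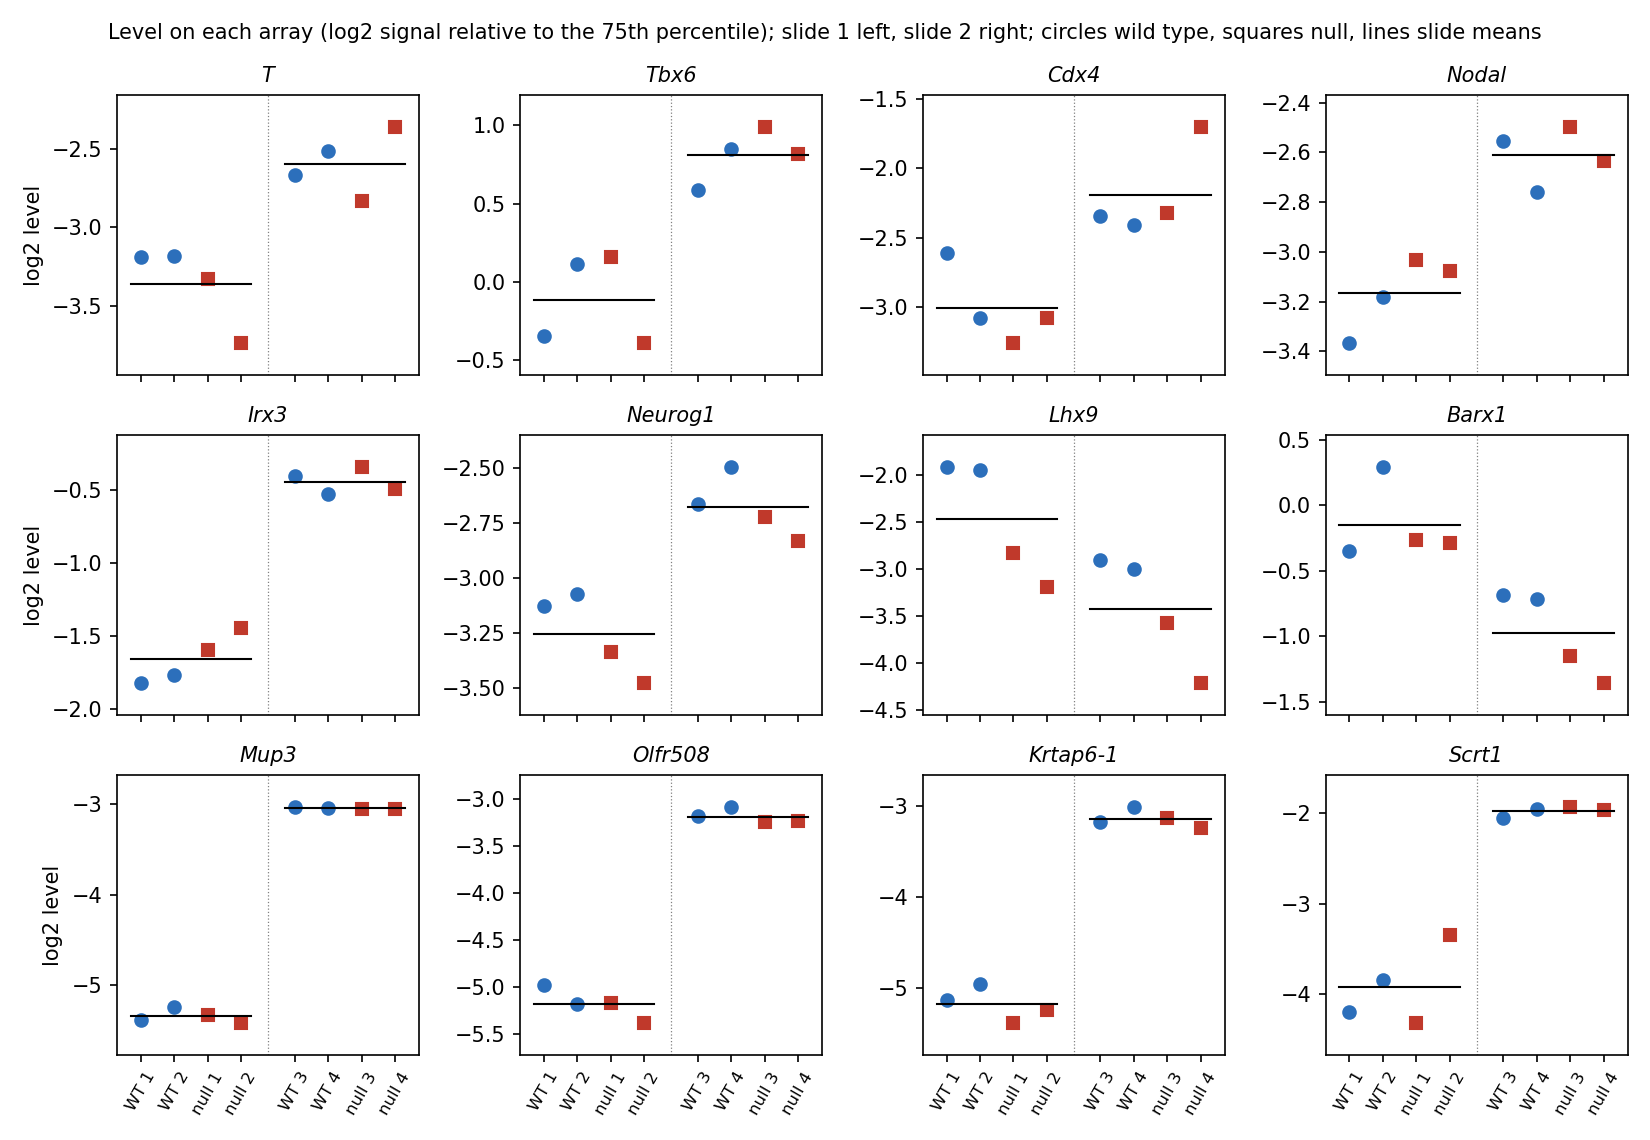
Level of 12 genes on each array (log2 signal relative to the array's 75th percentile), slide 1 left of the dotted line and slide 2 right, circles wild type, squares null, horizontal lines slide means. Mup3, Olfr508 and Krtap6-1 step by 1.98 to 2.29 with little spread within a slide; T, Tbx6 and Irx3 step by 0.76 to 1.21, and Lhx9 and Barx1 step down. Each panel has its own axis.

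Different probes of 1 gene often disagreed. Of 550 genes called at least 2-fold, 28 had another measured probe, 33 such probes in all. These others had the same sign in 30 cases, were called in 7, and had a median difference of 0.34 where the probes that stood for genes had a median of 1.26. The 2 brightest probes of a gene were also tested against each other, in a test added after the data were seen. Their slide differences departed at an adjusted p under 0.05 in 1327 of 6081 genes (21.8%), and in 213 of 452 genes called between slides (47.1%). The brightest probe also decided which genes were called. The larger share among called genes, and the larger median of the probes that stood for genes, are therefore expected in part from that choice. Of the 63 called genes that the naming rule gave, 17 had several probes, and all probes of a gene ran in 1 direction in 9 of them.

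Genes that mark the age of the embryo were called no more often than genes at large. Over 15 lists of stage and organ markers, 20 of 263 measured genes were higher on slide 2 and 4 were lower (9.13%, beside 12.4% of all genes), with a median of 0.02. Among dim genes 16 of 109 stage markers (14.7%) were higher, beside 18.3% of all dim genes, and among the 3 brightest bins 4 of 154 (2.60%) were, beside 4.41%. In pools of whole embryos, fewer cells of a type and less RNA per cell cannot be told apart.

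Tailbud, presomitic mesoderm and primitive streak genes had 4 of 21 members higher, 1 lower and 16 not called (23.8% called, beside 12.4% of all genes). In the 2 dimmest bins 3 of 13 members were higher (23.1%, beside 18.3% of all genes there). In the 3 brightest bins 1 of 8 was (12.5%, beside 4.41%). Tbx6, which specifies presomitic mesoderm, lay at -0.34 and 0.12 in the wild-type and 0.16 and -0.39 in the null pools of slide 1. On slide 2 it lay at 0.59 and 0.85 in the wild-type and 0.99 and 0.82 in the null pools. The slides did not overlap, and the difference was 0.92 (SE 0.16, adjusted p = 0.00896). T, the brachyury gene of the streak and notochord, ran from -3.74 to -3.18 on slide 1 and from -2.83 to -2.36 on slide 2, a rise of 0.76 (SE 0.14, adjusted p = 0.0142). Nodal, a ligand of streak and node, rose by 0.55 (adjusted p = 0.00447). The posterior homeobox gene Cdx4 rose by 0.81 (adjusted p = 0.0407) with no overlap between slides, and Lfng, a modulator of Notch in the segmentation clock, fell by 0.28 (adjusted p = 0.046).

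Other tailbud genes did not pass. Msgn1, a transcription factor of presomitic mesoderm, differed by 0.89 (SE 0.30, adjusted p = 0.105), Evx1 by 0.61 (adjusted p = 0.0514) and Nkx1-2 by 0.53 (adjusted p = 0.0625). The signals Fgf8 and Wnt3a differed by -0.15 (SE 0.19) and -0.12 (SE 0.15), the clock gene Hes7 by 0.08 (SE 0.11) and Cdx2 by 0.42 (SE 0.28). The list's median was 0.08 and became -0.08, -0.11 and -0.09 with median, quantile and loess scaling. With the replicate number as a random block the adjusted p of Tbx6, T and Cdx4 became 0.0749, 0.0601 and 0.189. Cdx4 kept its call in 1 of 8 fits that left out an array, the one without wild-type pool 1, with adjusted p between 0.0581 and 0.109 in the others.

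Neural genes were mixed. Irx3, which takes part in patterning the neural tube, lay between -1.82 and -1.45 on slide 1 and between -0.53 and -0.34 on slide 2, a rise of 1.21 (SE 0.081, adjusted p = 0.00013) or 2.32-fold. It was called in all 25 alternatives that measured it. Of 27 neural tube genes 3 rose and 1 fell (14.8%, beside 12.4% of all genes): the eye field gene Rax rose by 0.51, Pax6 by 0.22, and Msx3 of the dorsal neural tube fell by 0.48 on one probe, where its other probe read 0.03. Pax6 lost its call in each of the 8 fits without an array, with adjusted p from 0.0677 to 0.159. Of 25 early neuron genes 3 rose and 1 fell (16%), and all 3 risers lay in the 2 dimmest bins, as 3 of 13 list members there (23.1%, beside 18.3% of all genes). Neurog1, a proneural factor, rose by 0.57 (adjusted p = 0.00209) and the motor neuron gene Mnx1 by 0.52 (adjusted p = 0.0259), while the neurofilament Nefl fell by 0.38. Pou4f1 of sensory neurons rose by 0.58 on its brightest probe and read -0.67 on the other. Mnx1 kept its call in the fits without wild-type pool 2 or 3 and missed it in the other 6, at 0.053 to 0.0844, and Nefl kept its call only without wild-type pool 1. With a random replicate block the adjusted p of Pax6, Mnx1 and Nefl became 0.155, 0.0735 and 0.181.

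Genes of early embryonic cells were few and dim. Of 9 measured, Tdgf1, a co-receptor of Nodal, rose by 0.85 (adjusted p = 0.000888), Utf1 by 0.80 (adjusted p = 0.0238) and Esrrb by 0.43 (adjusted p = 0.0254). Over the list 33.3% were called, beside 12.4% of all genes. All 3 lay in the 2 dimmest bins of level, where 3 of 6 list members rose (50%, beside 18.3% of all genes there). The brighter members Lin28a, Lin28b and Dnmt3b differed by 0.01, 0.12 and 0.19 and were not called. Utf1 lost its call without wild-type pool 3, wild-type pool 4 or null pool 4 (adjusted p = 0.0726, 0.0743 and 0.0678). Esrrb kept its call only without null pool 1 or null pool 4. A random replicate block gave an adjusted p of 0.112 for Utf1 and 0.138 for Esrrb.

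Most organ lists were called less often than all genes (12.4%), but matrix genes were called at 16.7% and somite genes at 12.5%. None of 23 heart muscle, 25 S phase and mitosis, 18 eye, ear and placode, 11 intermediate mesoderm and germ cell or 11 limb bud genes passed the limma threshold. The limb bud median was -0.14, with the mesenchyme genes Prrx1 at -0.20 and Msx1 at -0.30 and the homeobox gene Msx2 at 0.20. None of 12 posterior Hox genes passed, with a median of 0.20 and the smallest p in Hoxc9 (0.40, adjusted p = 0.0871). Somite genes had Myod1 (0.28) and the receptor subunit Chrna1 (0.41) higher among 16, both dim, at mean levels of -5.56 and -5.33. The matrix genes Acan (0.59) and Sparc (0.36) rose and Col9a1 (-0.29) fell among 18, and the second Sparc probe read -0.03. Foxa1 of gut endoderm rose by 0.64, Hoxa3 by 0.30 and the neural crest gene Tfap2b by 0.32. With a random replicate block Myod1, Chrna1, Sparc, Col9a1, Foxa1, Hoxa3 and Tfap2b lost their calls (adjusted p from 0.0584 to 0.169). In fits without an array, Myod1 kept its call only without wild-type pool 3, Chrna1 only without null pool 3, Sparc only without null pool 2, and Col9a1 and Tfap2b only without null pool 1. Hoxa3 kept it only without wild-type pool 3 or null pool 2, and Foxa1 lost it without null pool 3 or 4.

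Few markers of extraembryonic tissue were called. Of 66 measured genes in 5 lists, 1 was higher and none lower (1.52%, beside 12.4% of all genes), with a median of 0.03. The one called was Prl3b1, a placental lactogen of trophoblast giant cells. It lay at -1.54 and -1.37 in wild-type and -2.28 and -1.75 in null pools on slide 1, and at -0.98 and -0.81 in wild-type and -1.10 and -0.95 in null pools on slide 2. The rise was 0.78 (SE 0.15, adjusted p = 0.0142), and with the replicate number as a random block the adjusted p was 0.0575. Prl3d1, another lactogen of the same cells, differed by 0.97 (SE 0.34, adjusted p = 0.118), and the remaining 7 trophoblast genes ran from -0.20 to 0.43.

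None of 24 yolk sac endoderm genes was called, although several varied widely between pools. The apolipoprotein Apob differed by 0.29 (SE 0.53), Apoc2 by 0.36 (SE 0.78) and the vitamin receptor Cubn by 0.29 (SE 0.55), so differences of this size were not detectable with 4 arrays a side. Alpha-fetoprotein, Afp, differed by -0.17 (SE 0.28). Of 4 measured decidual genes, 14 parietal endoderm genes and 15 genes of allantois and amnion none passed, and the smallest adjusted p were those of Wnt4 (-0.34, 0.0786), Pth1r (-0.30, 0.0576) and Wnt2 (-0.22, 0.0566). Another probe of Pth1r read -0.48 and was called when p was adjusted over probes (adjusted p = 0.0257).

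Blood and vessel genes gave 3 rises and 2 falls among 54 (9.26%, beside 12.4% of all genes). Of 10 adult globin and white cell genes 2 rose and 1 fell (30%). Called shares were 4.17% of 24 primitive red cell genes and 5% of 20 endothelial genes. Cd74, the invariant chain of class II molecules, rose by 1.03 (adjusted p = 0.000196) from a level of -5.30 to -5.10 on slide 1, and the Fc receptor chain Fcer1g rose by 0.58, while Coro1a of white cells fell by 0.48. Fech, the last enzyme of haem synthesis, rose by 0.43 on one probe and read -0.06 on the other, and Pecam1 of endothelium fell by 0.32. A random replicate block gave an adjusted p of 0.0853 for Coro1a, 0.136 for Fech and 0.145 for Pecam1. In the 8 fits without an array Coro1a was called only without null pool 1, Fech only without null pool 4 and Pecam1 in none.

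Bright housekeeping groups gave few calls. Of 269 ribosomal, mitochondrial ribosomal, oxidative phosphorylation, histone and small RNA host genes, 3 were higher and 2 lower (1.86%, beside 12.4% of all genes). The 3 brightest bins held 261 of them, with 1.15% higher and 0.766% lower, beside 4.41% and 2.45% of all genes there. Rpl30 rose by 0.67 (adjusted p = 0.00241) and Rps27a by 0.46, Rps19 fell by 0.43 on a probe whose partner read 0.11, Cox7c rose by 0.29 and the linker histone H1f2 fell by 0.58. Genes of handling, from hypoxia to heat shock, gave 1 rise and 4 falls among 112 (4.46%, beside 12.4% of all genes). Falls made up 3.57%, beside 2.44% of all genes. Of the falls 3 were among 21 genes of cholesterol synthesis (14.3%), in Fdft1 (-0.39, adjusted p = 0.00525), Mvk (-0.55) and Lss (-0.37). Another was in the chaperone Hspa5 (-0.26). The rise was that of Hspa8 (0.35), whose other probe read -0.11. A random replicate block ended the calls of Rps27a (adjusted p = 0.126), Rps19 (0.0889), Cox7c (0.111), H1f2 (0.163), Mvk (0.0647), Hspa5 (0.0978) and Hspa8 (0.140). In fits without an array, Rps27a and Hspa8 were called only without wild-type pool 2 or 3, Rps19 only without wild-type pool 1 or null pool 1, Cox7c only without null pool 2, H1f2 only without null pool 1 or 3, and Hspa5 only without null pool 1 or 2. Lss lost its call without wild-type pool 3, wild-type pool 4 or null pool 3, and Mvk without those or wild-type pool 2. None of 20 immediate early and 31 hypoxia and glycolysis genes was called.

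**Figure D4:**
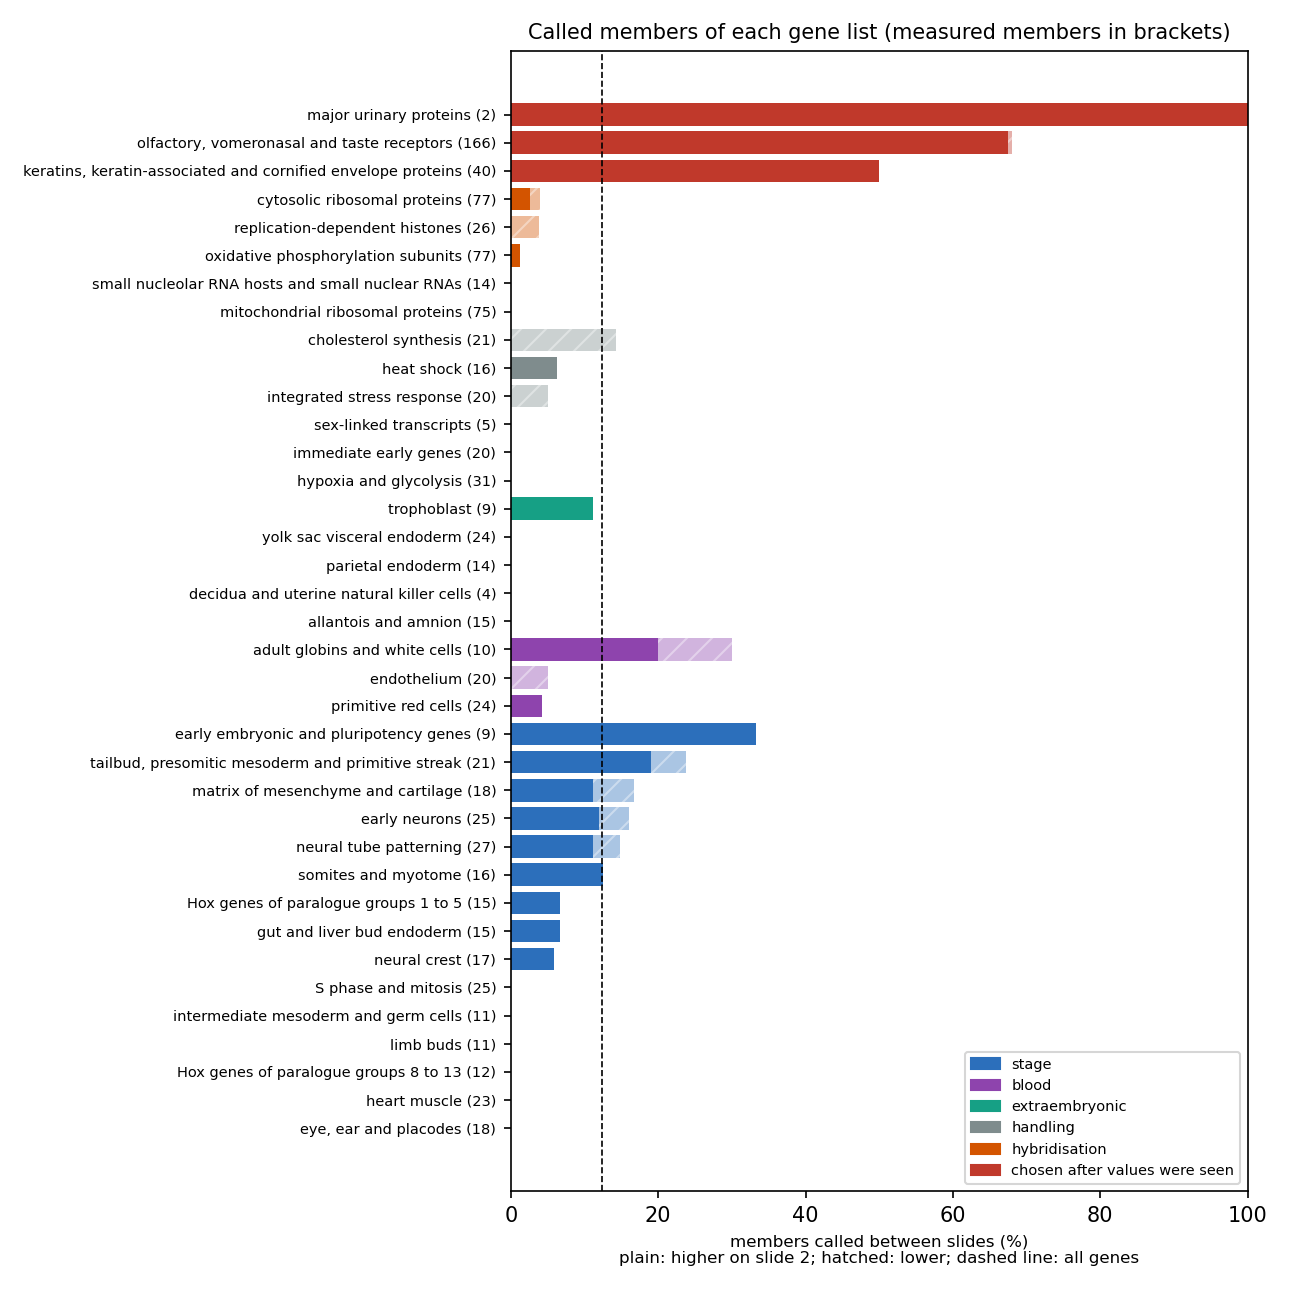
Percent of the measured members of each gene list called between slides, plain for higher and hatched for lower on slide 2, with measured members in brackets and a dashed line at the 12.4% of all genes. Of 34 lists 8 pass the line, from 12.5% to 33.3%; the 3 receptor, keratin and urinary protein lists at the top were chosen after values were seen and reach 50% to 100%.

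The difference between slides recurred in both genotypes, which share no array. Across genes the slide difference of the wild-type pools and that of the null pools correlated at r = 0.703 (Spearman's rho 0.659) over 17097 genes, as a description, since genes are not independent and each pair of arrays shares its slide. The sign was the same in 75.6% of genes. Taken alone, the wild-type pools gave 734 calls (4.29%) and the null pools 977 (5.71%) in the fit that shares 1 spread. In the 5 bins of level r was 0.656, 0.712, 0.727, 0.760 and 0.783 from dim to bright. Tbx6 rose by 0.83 in the wild-type and 1.02 in the null pools, Irx3 by 1.33 and 1.10, and Mup3 by 2.27 and 2.31.

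Genotype changed the slide difference of 1 gene at an adjusted p under 0.05 (0.00585% of genes), with 377 (2.21%) at an unadjusted p under 0.05. That gene was the predicted gene Gm270, named because it was the only one. It lay at -2.11 and -2.69 in wild-type pools 1 and 2, at -5.30 and -5.35 in wild-type pools 3 and 4, at -6.46 and -6.24 in null pools 1 and 2 and at -4.80 and -4.81 in null pools 3 and 4. The differences departed by 4.47 (SE 0.28, adjusted p = 0.0406). Null pools 1 and 2 were not above background, so the rise of the null pools is only a bound of at least 1.94-fold, and the 4.47 counts signals below background. The call was lost with quantile, loess or no scaling, and in 6 of 8 fits without an array, all but those without wild-type pool 1 or 2. Next in order by p, none called, came Tcstv3 (2.62, adjusted p = 0.286), Magix (-1.16, adjusted p = 0.332), Gbp7 (2.28, adjusted p = 0.765), Gpr137c (-1.35), Zscan4c (-1.48) and Zc3h3 (1.36). Of these, Magix and Zc3h3 were above background in every pool. Null pools 1 and 2 were not above background for Tcstv3, nor any slide 1 pool for Gbp7. Gpr137c was above it in 1 of 4 slide 1 pools, and Zscan4c in wild-type pools 3 and 4 and null pools 1 and 2 only, so those differences count signals below background. Tcstv3 and Zscan4c are known from the 2-cell embryo. Tcstv3 lay at -2.87 and -3.39 in wild-type pools 1 and 2 and between -5.60 and -4.51 in the other 6 pools.

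**Figure D5:**
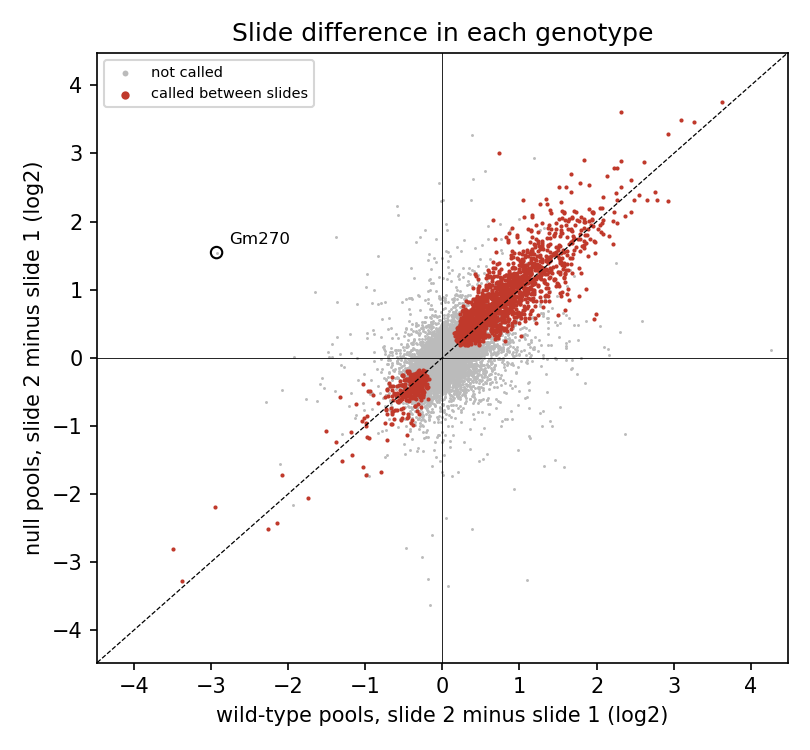
Difference between slides (log2, slide 2 minus slide 1) in the null pools against that in the wild-type pools, 1 point a gene, called genes coloured, with the line of equality dashed. The points follow the line (r = 0.703), and Gm270, ringed, lies at -2.93 in the wild-type and 1.54 in the null pools.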

How the data were processed

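Per the file headers, the deposited scanner files of an Agilent mouse design hold spot intensity values with probe positions on mm7, and the processed intensity is background-subtracted and not scaled between arrays. A table of log2 values deposited with the series, of unstated making, added constant and background correction, served as an alternative. Control and outlier spots were left out, spots of a probe averaged, log2 taken and each array's 75th percentile subtracted. Probes above background on at least 4 of 8 arrays were kept (25555 of 41174), and the brightest stood for its gene (17097 genes with at least 6 values, 1 or more per genotype and slide).

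Genes were tested with limma 3.58.1 in R 4.3.3 (lmFit, eBayes, terms genotype and slide, or their interaction), with Benjamini-Hochberg adjustment over all genes and no minimum fold. The steps were tested on simulated data. Gene names came from a RefSeq table (22951 probes by accession, 6659 by symbol, 3109 by an older name) or from the file (8455). The comparison and its lists were chosen with earlier results of these data known. Genes named are the 12 largest called rises and 12 falls among genes above background on all arrays with no overlap within either genotype, up to 4 called members of each list or the member with the smallest p, and the 6 smallest p of the interaction, without clone, predicted or accession names. Members named beyond this were chosen after their values were seen. Alternatives covered scaling, background, filters, probes, arrays left out, covariates and the replicate block.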

Additional observations from a re-analysis of the deposited data

Results flagged for a closer look

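Gaps between 1 array and the nearest other of its slide, relative to the slide's range, were examined in 188 sets of 4 arrays, and 9 passed the 95% limit (4.79%), where chance gives about 1 in 20. On slide 2, Cyp4a31 lay at -3.06 in null pool 3 against -2.97 in the nearest array, Odf4 at -4.23 in wild-type pool 4 against -3.26, Cdx4 at -1.71 in null pool 4 against -2.32, and Hspa8 at 6.20 in wild-type pool 3 against 6.44. Xist, the transcript of the inactive X chromosome, lay at -7.56 in null pool 4 against 0.94 in the nearest array of slide 2. On slide 1, Barx1 lay at 0.29 in wild-type pool 2 against -0.26, Utf1 at -3.74 in wild-type pool 1 against -3.04, and Myod1 at -5.63 in wild-type pool 1 against -5.72. The mean log2 signal of the spike-ins was 11.11 on the array of null pool 4 against 11.20 on the nearest array of slide 2.

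Gm270 fell by 2.93 between slides in the wild-type pools and had a difference of 1.54 in the null pools, and the interaction test gave 4.47 between them (adjusted p = 0.0406). It was not above background in null pools 1 and 2, so the null difference is only bounded.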

How the results depend on the processing

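The 2123 calls became 28 with a normexp background, 3689 with the deposited table, 759 in wild-type pools alone, 370 in null pools alone and 430 among genes with a mean above the 75th percentile (added after seeing the data). Pools of 1 number deviated together from their genotype means (r = 0.426 to 0.635), but each number lies within a slide. With the slide means removed r was 0.518 in slide 1 and 0.0981 in slide 2. The consensus correlation within numbers was 0.425 with genotype and slide as terms. The main fit did not pair pools by number, so its p-values take as independent pools that went together in slide 1. A random replicate block gave 1097 calls, averaging each number 771, and a fixed replicate block 0 interactions (768 unadjusted). Leaving out 1 array gave 1324 (without null pool 3) to 2266 (without null pool 1), with 1325 without wild-type pool 4 and 1330 without null pool 4.

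Of 34 lists, 8 had a larger share called than all genes. This was 1 with normexp, 4 with the mean over all kept probes, 5 and 3 with the random and averaged replicate block, 4 in wild-type pools alone, 3 in null pools alone and 6 to 8 with an array left out. The interaction count of 1 became 0 with quantile (384 unadjusted), cyclic loess (382), no shift (199), normexp (17), probes above background on all 8 arrays (302), the deposited table (350) or a Y-linked covariate (344), 12 with no filter on dim probes, and 0 to 5 with an array left out. The correlation of 0.703 became 0.919 with normexp and 0.456 with no filter.

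All 63 called genes that the naming rule gave kept their direction under median, quantile, loess and no scaling, and 48, 54, 55 and 45 of them their call. Called were 29 of them with the random replicate block, 19 with averaged numbers, 15 in wild-type pools alone, 12 in null pools alone and 2 with normexp. Reversed were Olfr578 (0.68), Efhd1 (0.24), Lhx9 (0.19), Entpd2 (0.90), Gngt2 (0.99) and Pecam1 (0.32) with normexp, Pou4f1 (-0.047) with the mean over probes and Myod1 (-0.095) with the deposited table. The causes were not tested. The median residual SD over genes was 0.146 with the processed signal and 0.229 with normexp.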

Other observations

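The mix of sexes differed between pools but not along the slides. Xist lay between 0.94 and 1.71 in wild-type pools 1, 3 and 4 and null pools 1 and 3, and between -7.86 and -7.03 in wild-type pool 2 and null pools 2 and 4. The Y-linked gene Eif2s3y was lowest in wild-type pool 1, at -8.30, and lay at 0.53 in wild-type pool 2. None of 5 sex-linked transcripts was called between slides. Adding the Y-linked level of each pool to the fit left 1731 genes called, 1690 of them among the 2123.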
